A study of Mus musculus with 20 samples.

Results

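A set of 10 genes of the plaque-associated state of microglia that act at the cell surface, in the lysosome or after secretion was followed across the hippocampus of mice with and without an amyloid transgene and with and without miR-34a. They were Itgax, Clec7a, Gpnmb, Spp1, Cd9, Cd63, Igf1, Lgals3, Lgals3bp and Cd68, chosen by name and matched by symbol to the Ensembl gene identifiers, which gave 10 of the 39056 genes in the count table. All 10 were among the 16107 genes with enough counts to be tested. The mRNA of the left hippocampus was sequenced in 20 female C57BL/6 mice, 5 in each of 4 groups. The miR-34a WT Non-Tg mice carried neither change, the miR-34a KO Non-Tg mice lacked miR-34a in the whole body from conception, the miR-34a WT Tg-SwDI mice carried the transgene alone, and the miR-34a KO Tg-SwDI mice carried the transgene and lacked miR-34a. Tg-SwDI mice express human APP with the Swedish, Dutch and Iowa mutations from the Thy1 promoter, which is active mainly in neurons, and neither the transgene nor the loss of miR-34a was directed at microglia. Behaviour had been tested at 12 months of age and cortical amyloid was measured at 13 months, while an age at RNA collection was not given separately. A mouse is called by its group and its label number.

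Microglia are the resident macrophages of the brain. Around amyloid plaques they take on a state in which phagocytic receptors, tetraspanins, lysosomal proteins and secreted ligands are made at higher levels, while the genes of resting, homeostatic microglia are usually made at lower levels in each cell. Clec7a and Itgax are commonly used to stain such cells beside plaques, and Cd68 is a common stain for the lysosomes of phagocytes. Because whole tissue was sequenced, a change in the number of cells of a type and a change in the RNA per cell cannot be told apart.

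Counts on genes summed to 19549622 to 21066868 per mouse. The transgene labels were checked with Thy1, which had between 685 and 769 CPM (counts relative to the library total, scaled by TMM factors) without the transgene. With it, Thy1 had between 1900 and 2330 CPM in WT mice and between 2450 and 3320 CPM in KO mice, without overlap of these genotypes. The miR-34a labels were not checked. Homeostatic microglia genes were present in every library, and their 12 genes summed to between 385 and 1130 CPM. The 7 choroid plexus genes, which mark the secretory epithelium that lies against the hippocampus in the ventricle, were uneven. Without the transgene they summed to over 1000 CPM in 3 WT and 0 KO mice, and with it in 4 mice of each genotype. In Tg-SwDI against Non-Tg mice, 5 of these 7 genes were called higher within the KO genotype and 0 within the WT genotype. Between KO and WT mice with the transgene 0 of 7 were called by edgeR's quasi-likelihood test. Values of the choroid plexus genes are given beside the genes they moved with. The library of KO Tg-SwDI mouse 8 had the lowest scaling factor, 0.90, against 0.98 to 1.03 in the other 19 mice. A gene was called when edgeR's quasi-likelihood test gave a Benjamini-Hochberg adjusted p under 0.05 over the genes tested, and fold changes are on the log2 scale with their standard error (SE).

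The microRNA itself was not measured here. Its mature sequence in RefSeq (chr4:150068473-150068494, plus strand, GRCm38.p6) and the only match of its seed in the longest annotated 3′ untranslated regions (3′UTR) of the 10 genes are shown because the design removes this microRNA. Capitals mark the seed, bases 2 to 8, in the microRNA and the letters paired with it in the target.
mmu-miR-34a-5p: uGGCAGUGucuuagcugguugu
Igf1: ttctaaatgtCACTGCCcaattgaaat
The match lies in Igf1 on chromosome 10 from 87936196 to 87936202 on the plus strand, at position 5462 of a 3′UTR of 6308 bases (transcript ENSMUST00000095360.10). Of 7 annotated Igf1 coding transcripts with a 3′UTR only 1 held it, and counts per gene do not tell these transcripts apart. Of 14708 tested genes with a 3′UTR, 17.2% held the match, against 1 of the 10 genes here, or 10%. The 10 genes had shorter 3′UTRs, with a median of 447.5 bases against 1189 bases. Igf1 was not called in the KO against WT comparison with or without the transgene. With the transgene it was called in 1 of 31 alternatives, the correction for GC content and length (Igf1 0.39, adjusted p = 0.0365, edgeR, against 0.30 and 0.0991).

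The windows around the start sites are shown for 3 genes that rose with the transgene in both miR-34a genotypes, because each holds the AP-1 letters TGANTCA, the motif of Fos and Jun factors. The windows run from 250 bases before to 50 bases after the annotated start (RefSeq, GRCm38.p6), are written in the direction of transcription, and have the motif in capitals. They are chr7:128129300-128129599 on the plus strand for Itgax, chr6:49036268-49036567 on the plus strand for Gpnmb and chr11:69666121-69666420 on the minus strand for Cd68.
Itgax: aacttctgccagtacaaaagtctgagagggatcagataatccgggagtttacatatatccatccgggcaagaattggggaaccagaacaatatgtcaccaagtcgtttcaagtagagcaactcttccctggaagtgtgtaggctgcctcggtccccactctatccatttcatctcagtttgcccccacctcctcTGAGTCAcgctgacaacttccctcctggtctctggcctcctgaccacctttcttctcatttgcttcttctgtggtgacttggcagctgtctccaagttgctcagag
Gpnmb: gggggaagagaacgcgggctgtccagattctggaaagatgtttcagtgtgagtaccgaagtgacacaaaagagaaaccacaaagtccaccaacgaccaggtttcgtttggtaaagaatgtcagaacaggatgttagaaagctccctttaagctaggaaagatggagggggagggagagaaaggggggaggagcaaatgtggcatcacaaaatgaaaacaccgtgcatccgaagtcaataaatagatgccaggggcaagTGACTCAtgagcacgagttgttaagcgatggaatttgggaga
Cd68: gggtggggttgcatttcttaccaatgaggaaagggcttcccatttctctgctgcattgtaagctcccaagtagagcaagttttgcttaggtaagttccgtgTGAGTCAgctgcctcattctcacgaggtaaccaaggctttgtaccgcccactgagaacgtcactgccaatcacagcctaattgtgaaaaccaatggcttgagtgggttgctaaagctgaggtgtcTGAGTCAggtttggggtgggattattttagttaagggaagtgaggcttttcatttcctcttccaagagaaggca
The letters TGANTCA, searched on both strands, were in the windows of 4 of the 10 genes (Itgax, Gpnmb, Igf1 and, at 2 places, Cd68) and in 7.93% of 27025 promoter windows of the same length. A PU.1 motif (GAGGAAGT) and the interferon-stimulated response element (ISRE) were each in the Spp1 window alone, against 3.28% and 3.49% of all windows. An M-box (TCATGTG) was in the Lgals3bp window alone, against 3.74%. The lysosomal E-box CACGTG was in 0 of the 10 windows, against 7.24%, and the STAT motif TTCNNNGAA in 0 of 10, against 8.47%. The motifs were chosen after the windows had been seen, and a match is a match of letters, not a site shown to be bound.

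With the transgene, these genes rose almost without exception in both miR-34a genotypes. In miR-34a WT mice 9 of 10 were called higher with the transgene than without it, where 3.94% of all genes tested were called higher, and Lgals3bp was not called. In miR-34a KO mice 10 of 10 were called higher, where 12.5% of all genes were. The median log2 fold change of the 10 genes was 1.67 in WT and 2.80 in KO mice, and that of all genes tested was 0.00 and -0.00. The values of the lowest Tg-SwDI mouse lay above those of the highest Non-Tg mouse for 9 of the 10 genes in WT mice, where 5.1% of all genes showed this, and for 10 of 10 in KO mice, where 8.47% did. Cd63 in WT mice was the exception.

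**Figure D1:**
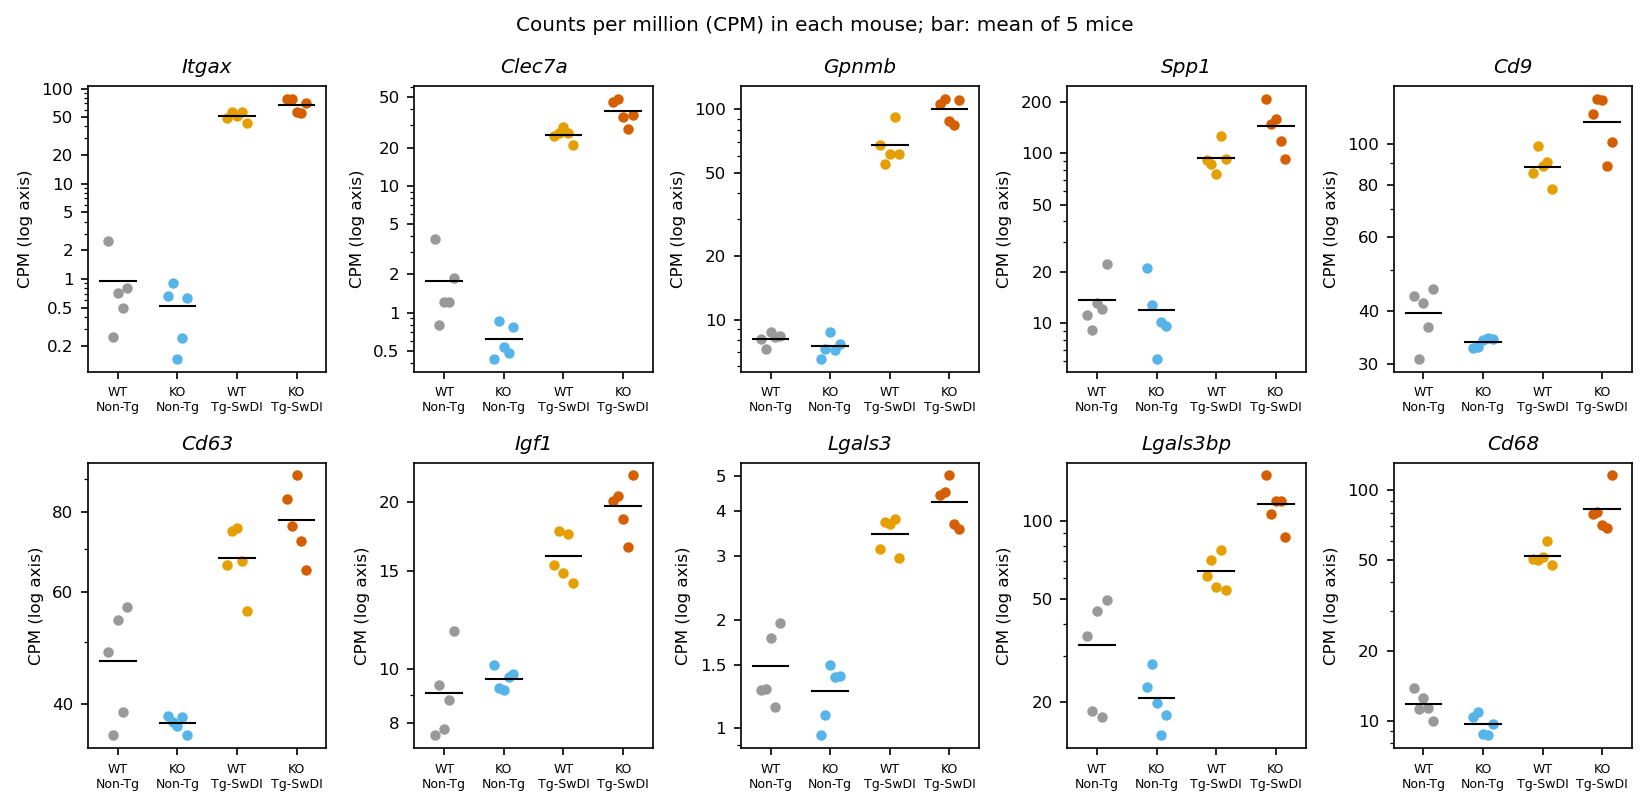
CPM of each of the 10 genes in each of the 20 mice, on log axes, with 1 point per mouse, a bar at the mean of 5 mice and 1 panel per gene. The Tg-SwDI mice lie above the Non-Tg mice in every panel except Cd63 in miR-34a WT mice, where the values touch, and the KO Tg-SwDI mice have the highest mean in all 10 panels.

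Among the surface receptors, Itgax and Clec7a went from a few counts to many. Itgax encodes CD11c, the alpha chain of a leukocyte integrin that pairs with the beta chain Itgb2, and lies on chromosome 7 from 128129547 to 128150657 on the plus strand. In WT Non-Tg mice 2, 3, 4, 6 and 7 it stood at 2.51, 0.248, 0.704, 0.5 and 0.811 CPM, and in WT Tg-SwDI mice 3 to 7 at 48.8, 56.4, 51.6, 56 and 43.4 CPM. In KO Non-Tg mice 1, 2, 4, 7 and 8 it stood at 0.67, 0.901, 0.145, 0.24 and 0.629 CPM, and in KO Tg-SwDI mice 1, 2, 3, 5 and 8 at 77.3, 77.6, 56.7, 55.5 and 70.7 CPM. All Non-Tg mice were far below all Tg-SwDI mice, WT Non-Tg mouse 2 was the highest of the Non-Tg mice, and the 2 Tg-SwDI groups overlapped between 55.5 and 56.4 CPM. The log2 fold change was 5.72 (SE 0.29, adjusted p = 3.4e-10, edgeR) in WT and 7.01 (SE 0.32, adjusted p = 2.3e-11) in KO mice, the third largest of all 16107 genes in each comparison. The Non-Tg values rest on 3 to 53 counts, so these folds are less precise than the Tg-SwDI levels, and without WT Non-Tg mouse 2 the fold in WT mice was 6.48.

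Clec7a encodes dectin-1, a lectin receptor that signals through the kinase Syk and the adaptor Card9. It lies on chromosome 6 from 129461591 to 129472779 on the minus strand and is listed as a polymorphic pseudogene in the GENCODE M21 annotation. Its CPM was 3.83, 0.793, 1.22, 1.2 and 1.86 in WT Non-Tg mice 2, 3, 4, 6 and 7, and 24.6, 26.3, 29.1, 26 and 20.8 in WT Tg-SwDI mice 3 to 7. It was 0.431, 0.854, 0.531, 0.48 and 0.774 in KO Non-Tg mice 1, 2, 4, 7 and 8, and 45.7, 48.4, 35, 28.1 and 35.9 in KO Tg-SwDI mice 1, 2, 3, 5 and 8. The KO Non-Tg mice were at the bottom, with only mouse 2 above the lowest WT Non-Tg mouse, and in Tg-SwDI mice the order was the opposite, with only KO mouse 5 below the highest WT mouse. The log2 fold change with the transgene was 3.82 (SE 0.27, adjusted p = 1.3e-08, edgeR) in WT and 5.96 (SE 0.31, adjusted p = 7.9e-11) in KO mice. The Non-Tg mice had 9 to 81 counts.

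Gpnmb encodes a transmembrane glycoprotein of phagocytes rich in lysosomes, and lies on chromosome 6 from 49036546 to 49070929 on the plus strand. It was even among the Non-Tg mice, at 8.13, 7.24, 8.69, 8.25 and 8.35 CPM in WT mice 2, 3, 4, 6 and 7 and at 6.51, 7.21, 8.73, 7.2 and 7.69 CPM in KO mice 1, 2, 4, 7 and 8. In WT Tg-SwDI mice 3 to 7 it reached 67.4, 55.2, 61.1, 92.3 and 61.2 CPM, and in KO Tg-SwDI mice 1, 2, 3, 5 and 8 it reached 106, 112, 87.8, 83.9 and 111 CPM. WT Tg-SwDI mouse 6 stood above the other 4 of its group and within the range of the KO mice, and no other WT mouse reached it. On the log2 scale the change was 3.05 (SE 0.13, adjusted p = 1.4e-12, edgeR) in WT and 3.74 (SE 0.13, adjusted p = 2.3e-14) in KO mice.

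The tetraspanins, small membrane proteins that organise receptors and vesicles, rose less. Cd9 lies on chromosome 6 from 125460266 to 125494791 on the minus strand, where an exon overlaps the opposite-strand gene Gm26728, so reads of both cannot be told apart unless the counting used strand, which is not given in the sources used here. It ranged from 30.8 to 45.2 CPM in the Non-Tg mice of both genotypes, from 78.1 to 98.9 in WT Tg-SwDI and from 88.7 to 128 in KO Tg-SwDI mice. Its log2 fold change was 1.16 (SE 0.10, adjusted p = 4.1e-08, edgeR) in WT and 1.74 (SE 0.10, adjusted p = 2.8e-11) in KO mice. Cd63, of late endosomes and secreted vesicles, lies on chromosome 10 from 128900989 to 128912822 on the plus strand. In WT mice it ranged from 35.7 to 56.8 CPM without and from 55.9 to 75.6 with the transgene, and in KO mice from 35.7 to 38.3 without and from 64.9 to 91.3 with it. The WT groups overlapped only through WT Non-Tg mouse 7 and WT Tg-SwDI mouse 7, while the KO groups were well apart. The log2 fold change was 0.54 (SE 0.11, adjusted p = 0.00553, edgeR) in WT, the smallest of the 10 genes, and 1.06 (SE 0.12, adjusted p = 8.3e-07) in KO mice.

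Cd68 encodes a heavily glycosylated protein of the lysosomal membrane of macrophages, and lies on chromosome 11 from 69664213 to 69666153 on the minus strand. It stood at 13.9, 11.2, 12.5, 11.3 and 10 CPM in WT Non-Tg mice 2, 3, 4, 6 and 7 and at 50.1, 49.6, 51.4, 60.3 and 47.6 CPM in WT Tg-SwDI mice 3 to 7. It stood at 10.4, 10.9, 8.73, 8.64 and 9.63 CPM in KO Non-Tg mice 1, 2, 4, 7 and 8 and at 79.2, 80.5, 70.4, 68.7 and 116 CPM in KO Tg-SwDI mice 1, 2, 3, 5 and 8. Every KO Tg-SwDI mouse was above every WT Tg-SwDI mouse, and KO mouse 8, whose library had the lowest scaling factor, was far above the other 4. With the transgene the log2 fold change was 2.13 (SE 0.13, adjusted p = 3.1e-10, edgeR) in WT and 3.10 (SE 0.13, adjusted p = 4.7e-13) in KO mice.

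Among the secreted proteins, Spp1 rose most. Spp1 encodes osteopontin, a ligand of integrins and of Cd44, and lies on chromosome 5 from 104435118 to 104441050 on the plus strand, where it shares exon sequence with the same-strand gene Gm42793, which has no row in the count table. Its CPM was 11.2, 9.12, 13.2, 12.2 and 22.4 in WT Non-Tg mice 2, 3, 4, 6 and 7, and 91.4, 86.7, 75.5, 126 and 92.8 in WT Tg-SwDI mice 3 to 7. It was 21.3, 12.9, 6.18, 10.2 and 9.58 in KO Non-Tg mice 1, 2, 4, 7 and 8, and 209, 148, 159, 119 and 92.9 in KO Tg-SwDI mice 1, 2, 3, 5 and 8. Among the KO Tg-SwDI mice Spp1 varied most of the 10 genes, with a coefficient of variation of 30.2%, and KO mouse 8, the highest for Cd68, was the lowest of its group for Spp1. This was a log2 fold change of 2.79 (SE 0.30, adjusted p = 7.3e-06, edgeR) in WT and 3.59 (SE 0.31, adjusted p = 1.8e-07) in KO mice.

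Igf1, a growth factor, and Lgals3, the beta-galactoside binding lectin galectin-3, rose by smaller amounts and from low levels. Igf1 lies on chromosome 10 from 87858265 to 87937042 on the plus strand and ranged, without the transgene, from 7.61 to 11.7 CPM in WT and 9.17 to 10.2 in KO mice, and with it from 14.3 to 17.7 in WT and 16.6 to 22.3 in KO mice. Its log2 fold change was 0.82 (SE 0.10, adjusted p = 2.1e-06, edgeR) in WT and 1.02 (SE 0.10, adjusted p = 1.5e-08) in KO mice. Lgals3 lies on chromosome 14 from 47367751 to 47386160 on the plus strand, ranged from 0.957 to 1.96 CPM in the Non-Tg mice and from 2.97 to 5.03 CPM in the Tg-SwDI mice, and rested on 20 to 104 counts per mouse. Its log2 fold change was 1.21 (SE 0.16, adjusted p = 6.4e-06, edgeR) in WT and 1.75 (SE 0.16, adjusted p = 6.5e-09) in KO mice. For both genes every Tg-SwDI mouse was above every Non-Tg mouse, and the Tg-SwDI groups overlapped.

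Lgals3bp encodes a secreted glycoprotein that binds galectin-3, and lies on chromosome 11 from 118392751 to 118402092 on the minus strand. Its CPM was 36, 18.4, 44.7, 17.5 and 49.5 in WT Non-Tg mice 2, 3, 4, 6 and 7, and 61.3, 70.8, 55.3, 77.4 and 54.1 in WT Tg-SwDI mice 3 to 7. It was 22.8, 27.9, 19.7, 14.8 and 17.8 in KO Non-Tg mice 1, 2, 4, 7 and 8, and 150, 106, 120, 120 and 86.8 in KO Tg-SwDI mice 1, 2, 3, 5 and 8. WT Non-Tg mice 3 and 6 lay among the KO Non-Tg mice and the other 3 above them, and all KO Tg-SwDI mice were above all WT Tg-SwDI mice. The log2 fold change with the transgene was 0.94 (SE 0.26, adjusted p = 0.0521, edgeR) in WT, where the groups did not overlap but the gene was not called, and 2.50 (SE 0.27, adjusted p = 3.2e-06) in KO mice.

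Lgals3bp and Cd63 also moved with the choroid plexus genes. WT Non-Tg mice 2, 4 and 7, in which the 7 choroid plexus genes summed to 1880, 3140 and 4270 CPM, had the 3 highest values of both genes in their group, and mice 3 and 6, at 168 and 60.9 CPM, had the 2 lowest. The KO Non-Tg mice, at 63.3 to 343 CPM of choroid plexus genes, lay at 14.8 to 27.9 CPM of Lgals3bp, beside 18.4 and 17.5 CPM in WT mice 3 and 6. Among the Tg-SwDI mice, WT mouse 7, at 117 CPM of choroid plexus genes, had the lowest Lgals3bp and Cd63 of its group, while KO mouse 2, at 125 CPM, had the fourth highest Lgals3bp and the third highest Cd63 of its group. Over the 20 mice, the deviations from the group means correlated with those of the choroid plexus list at r = 0.66 for Lgals3bp and 0.65 for Cd63, and at 0.10 for Gpnmb, as a description of libraries that share a dissection. With the choroid plexus level as a covariate, Lgals3bp was called in WT mice (log2 fold change 0.87, adjusted p = 0.0197, edgeR) and Cd63 remained called (0.48, adjusted p = 9.0e-04). In mice with over 1000 CPM of choroid plexus genes, a split chosen after seeing the data, 9 of 10 genes were called in WT mice, and Lgals3bp had a log2 fold change of 0.61 (adjusted p = 0.153, edgeR).

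**Figure D2:**
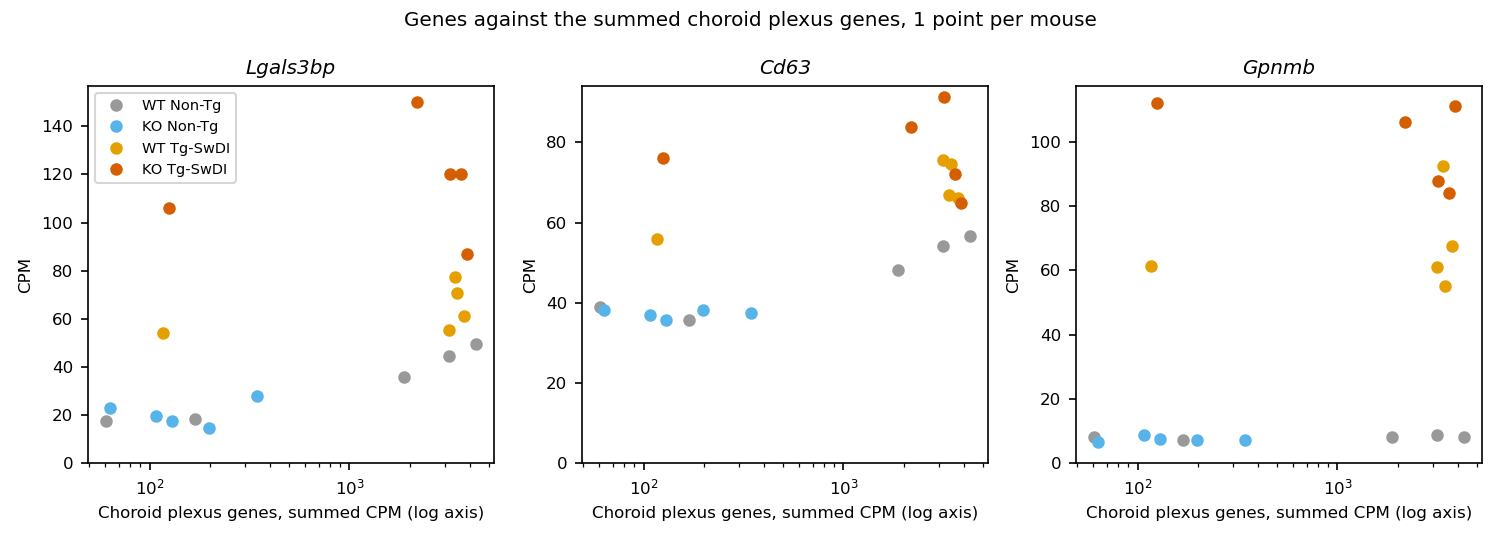
CPM of Lgals3bp, Cd63 and Gpnmb on the vertical axes against the summed CPM of the 7 choroid plexus genes on a log horizontal axis, with 1 point per mouse coloured by group. The WT Non-Tg mice with 1880 to 4270 CPM of choroid plexus genes are the highest of their group for Lgals3bp and Cd63, while Gpnmb stays between 7.24 and 8.69 CPM in that group.

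Levels per length of annotated exons put the genes in another order than their changes. The length counted every annotated exon base of a gene once, 1257 bases for Cd68, 3682 for Cd63 and 9904 for Igf1. A transcript can be shorter than this, so the order also depends on the annotation. In RPKM (CPM per 1000 bases of exons), WT Tg-SwDI mice had most Spp1 (57.3 ± 11.4, SD, n = 5), followed by Cd9 (43.2 ± 3.71) and Cd68 (41.2 ± 3.94), and the last 2 differed by less than their SD. Lgals3bp (22.4 ± 3.55) and Cd63 (18.4 ± 2.17) came next. Itgax (10.7 ± 1.13), Gpnmb (10.4 ± 2.23) and Clec7a (9.61 ± 1.14) lay within 1 SD of each other, and Lgals3 (1.87 ± 0.208) and Igf1 (1.61 ± 0.156) were lowest. In KO Tg-SwDI mice Cd68 (66.1 ± 15.4) stood above Cd9 (55.1 ± 8.48) by more than the SD of Cd9 but less than that of Cd68. Spp1 was again highest at 88.2 ± 26.6. In WT Non-Tg mice Cd9 (19.4 ± 2.87) and Cd63 (12.7 ± 2.52) led and Itgax (0.199 ± 0.186) was last, so the 2 most abundant genes without the transgene were among the 5 that changed least in WT mice.

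Loss of miR-34a in mice with the transgene was the next comparison. The fitted level of all 10 genes was higher in the KO mice, with a median difference of 0.48 on the log2 scale against 0.00 for all genes. Of the 10 genes 2 were called higher, where 1.48% of all genes were. The called genes were Cd68 (0.68, SE 0.12, adjusted p = 0.00635, edgeR) and Gpnmb (0.57, SE 0.11, adjusted p = 0.0129). The groups did not overlap for 2 of 10 genes, Cd68 and Lgals3bp, where 2.04% of all genes did not overlap in this direction. Thy1, the gene whose promoter drives the transgene, was also higher in every KO than in every WT mouse with the transgene (2450 to 3320 against 1900 to 2330 CPM), and its part in these differences and in the interaction was not tested. KO mouse 8 was the highest for both Thy1 and Cd68. Both calls held with any 1 of the 20 mice left out, with adjusted p of 0.00105 to 0.0246 for Cd68 and 7.6e-05 to 0.044 for Gpnmb. Without KO mouse 8 the log2 fold change of Cd68 was 0.53, the lowest value of any mouse left out.

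The other 8 genes had estimates on the same side without passing the test. Lgals3bp had the largest estimate of all 10 at 0.87 (95% interval 0.34 to 1.40, adjusted p = 0.0797, edgeR). Spp1 stood at 0.62 (0.06 to 1.19, adjusted p = 0.214), Clec7a at 0.61 (0.18 to 1.03, adjusted p = 0.117) and Itgax at 0.40 (SE 0.19, adjusted p = 0.262). Cd9 stood at 0.35 (0.15 to 0.56, adjusted p = 0.0592), Igf1 at 0.30 (0.09 to 0.50, adjusted p = 0.0991), Lgals3 at 0.30 (SE 0.14, adjusted p = 0.265) and Cd63 at 0.20 (-0.04 to 0.43, adjusted p = 0.362). These intervals reach up to between 0.43 and 1.40, so differences of that size are not excluded for the genes that were not called. DESeq2 and edgeR's exactTest each called 4 of 10, adding Cd9 and Lgals3bp to Cd68 and Gpnmb. With the 10 Tg-SwDI mice fitted alone 1 was called, Lgals3bp (adjusted p = 0.0324, edgeR), while Cd68 kept a log2 fold change of 0.68 (adjusted p = 0.0594) and Gpnmb of 0.57 (adjusted p = 0.0957). Between the 8 Tg-SwDI mice with over 1000 CPM of choroid plexus genes, fitted together with the 3 such WT Non-Tg mice, 0 of the 10 genes were called. The log2 fold changes were 0.67 for Cd68 (adjusted p = 0.122, edgeR) and 0.50 for Gpnmb (adjusted p = 0.148).

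Without the transgene, loss of miR-34a gave no called gene among the 10 by edgeR's quasi-likelihood test, where 0% of all genes were called in either direction, and 4 of the 10 and 1302 of 16107 genes had an unadjusted p under 0.05. The fitted level was lower in KO mice for 9 of 10 genes, with a median of -0.26 on the log2 scale. Spp1 was on the other side (0.07) without WT Non-Tg mouse 7. Clec7a had the largest difference, -1.54 (95% interval -2.43 to -0.64, adjusted p = 0.508, edgeR), followed by Itgax at -0.89 (SE 0.56, adjusted p = 0.743) and Lgals3bp at -0.69 (SE 0.27, adjusted p = 0.557). Clec7a was the only one of the 10 that DESeq2 (adjusted p = 0.0323) or the exactTest (adjusted p = 0.0112) called, and these tools called 7 and 4 genes in all. Without WT Non-Tg mouse 2 the Clec7a estimate was -1.04 and that of Itgax was -0.14. With the choroid plexus level as a covariate Lgals3bp stood at -0.30, and the KO Non-Tg group holds no mouse with over 1000 CPM of choroid plexus genes. Igf1, the gene with the seed match, had an estimate of 0.09 (95% interval -0.13 to 0.31).

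**Figure D3:**
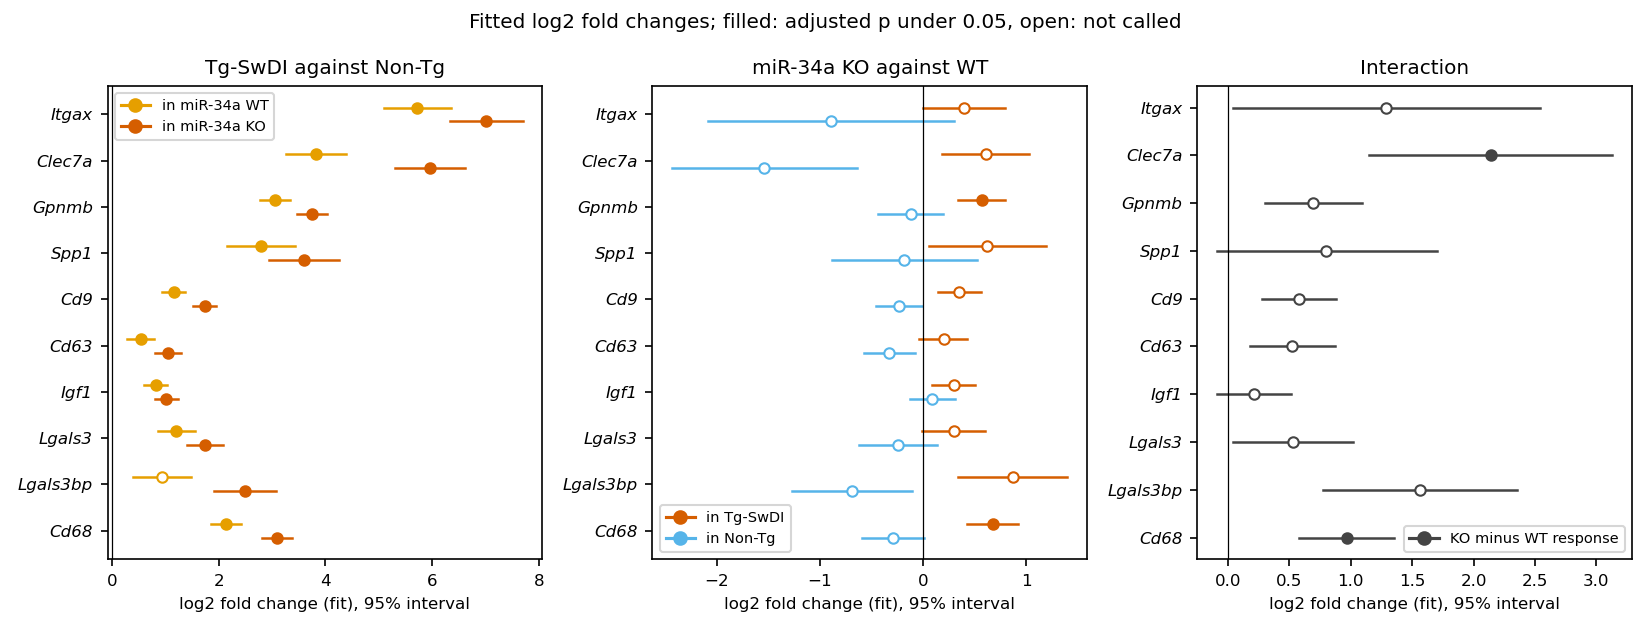
Fitted log2 fold changes of the 10 genes with 95% intervals for the transgene in each miR-34a genotype (left), for miR-34a loss in each transgene group (middle) and for the interaction (right). Filled points passed an adjusted p under 0.05 and open points did not. In the middle panel all 10 Tg-SwDI points lie above 0 and 9 of 10 Non-Tg points below it.

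The interaction asks whether the response to the transgene differed between KO and WT mice, as a difference of log2 fold changes. It was above 0 for all 10 genes, with a median of 0.75 against 0.01 for all genes, and 2 of 10 were called, where 0.428% of all genes were called higher. Clec7a had an interaction of 2.14 (SE 0.47, adjusted p = 0.0461, edgeR) and Cd68 of 0.97 (SE 0.18, adjusted p = 0.0199). The KO minus WT differences behind it were, for Clec7a, -1.54 without the transgene, where counts were few, and 0.61 with it, and for Cd68 -0.29 and 0.68. The interaction uses the same mice as the comparisons above. The Clec7a call held in 7 of the 20 fits with a mouse left out, was at an adjusted p of 0.0533 and an interaction of 1.65 without WT Non-Tg mouse 2, and was lost with the choroid plexus covariate (2.11, adjusted p = 0.108). The Cd68 call held in 18 of 20 such fits, and stood at adjusted p of 0.0533 without WT Non-Tg mouse 2, 0.0513 without KO Non-Tg mouse 7 and 0.0534 with the choroid plexus covariate (0.91).

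The other 8 genes did not pass the interaction test. Cd9 had an interaction of 0.58 (adjusted p = 0.0566, edgeR), Lgals3bp of 1.56 (0.0613), Gpnmb of 0.69 (0.0767) and Cd63 of 0.52 (0.119), and DESeq2 called all 4, with Clec7a and Cd68, for 6 of 10. Itgax (1.29, SE 0.59), Spp1 (0.80, SE 0.42), Lgals3 (0.53, SE 0.23) and Igf1 (0.21, SE 0.14) had adjusted p of 0.235 to 0.457. On the linear scale, the mean increase with the transgene was larger in KO than in WT mice for each of the 10 genes. It was 50.3 ± 2.45 CPM (SE) in WT and 67 ± 4.84 CPM in KO mice for Itgax, a ratio of 1.33, and 30.6 ± 7.99 and 96 ± 10.6 CPM for Lgals3bp, a ratio of 3.14. For Clec7a the increases were 23.6 ± 1.45 and 38 ± 3.72 CPM, a ratio of 1.61. Lgals3bp and Cd63 moved with the choroid plexus genes, which were uneven between the Non-Tg groups behind these increases. They summed to 60.9 to 4270 CPM in WT Non-Tg and 63.3 to 343 CPM in KO Non-Tg mice. With the choroid plexus covariate 0 of the 10 interactions were called, and the part of these genes in the Lgals3bp ratio was not tested.

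The homeostatic microglia genes rose too. All 12 were called higher with the transgene in both genotypes, with log2 fold changes of 0.36 to 1.57 in WT mice, among them Fcrls and Gpr34 (1.57 and 1.21), and least for P2ry12, Tmem119 and Sall1 (0.54, 0.40 and 0.36). With the transgene, 3 of 12 were called higher in KO than in WT mice, Selplg (0.39), Siglech (0.32) and Sall1 (0.27). The mean log2 CPM of the 12 genes was 4.90 ± 0.09 (SD, n = 5) in WT and 4.84 ± 0.03 in KO mice without the transgene, and 5.77 ± 0.10 in WT and 6.02 ± 0.15 in KO mice with it. The 10 genes were therefore also set against this mean within each mouse, as a log2 ratio.

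Relative to the homeostatic list, 5 of the 10 genes were still higher in every Tg-SwDI mouse than in any Non-Tg mouse of either genotype, and the other 5 were not. In WT mice the log2 ratio was higher with the transgene by 5.07 for Itgax, 3.08 for Clec7a, 2.14 for Gpnmb, 1.96 for Spp1 and 1.26 for Cd68, and in KO mice by 5.77, 4.59, 2.54, 2.46 and 1.88, without overlap of the groups in either genotype. The ratio of Igf1 differed by -0.05 in WT and -0.18 in KO mice and that of Cd63 by -0.32 and -0.14, with overlapping groups. Cd9 differed by 0.29 and 0.53, Lgals3 by 0.32 and 0.49 and Lgals3bp by 0.18 and 1.32, with overlap in WT and none in KO mice. Between KO and WT Tg-SwDI mice the ratio differed without overlap for Lgals3bp alone, by 0.61. With the homeostatic level as a covariate, 3 of 10 genes (Itgax, Gpnmb and Cd68) were called with the transgene in WT and 3 of 10 in KO mice, and 1 of 10 (Cd68, 0.74, adjusted p = 0.0262, edgeR) in KO against WT Tg-SwDI mice. In that fit the covariate and the transgene overlap almost wholly, since the lowest Tg-SwDI mouse (5.60) lay above the highest Non-Tg mouse (5.01).

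**Figure D4:**
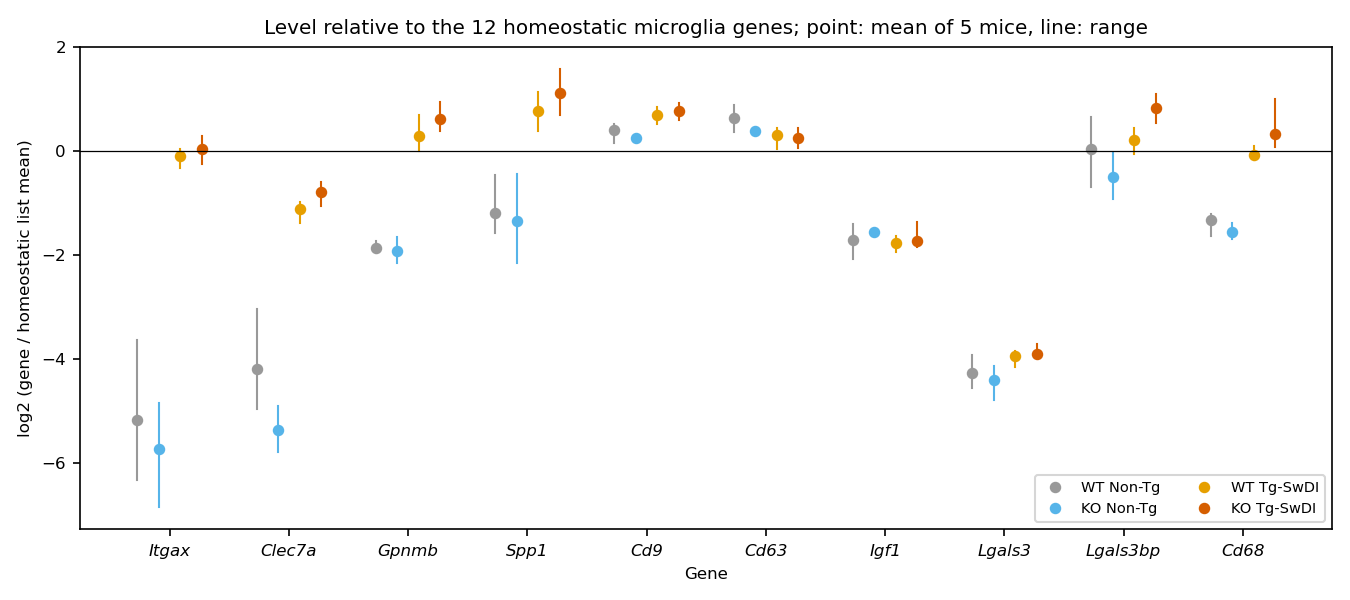
Log2 ratio of each of the 10 genes to the mean of the 12 homeostatic microglia genes in the same mouse, with a point at the mean of 5 mice and a line over their range for each group. Itgax, Clec7a, Gpnmb, Spp1 and Cd68 are higher in both Tg-SwDI groups without overlap, while Igf1 and Cd63 stay at or below their Non-Tg ratio.

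Receptors and partners of the 10 genes followed in part. Of 32 partner genes tested, 15 were called higher and 1 lower with the transgene in WT mice, and 24 higher and 1 lower in KO mice, with medians of 0.29 and 0.61 on the log2 scale against 0.00 and -0.00 for all genes. Itgb2, the beta chain that pairs with Itgax, had a log2 fold change of 1.40 (SE 0.14) in WT and 2.07 (SE 0.14) in KO mice. Syk, downstream of Clec7a, rose by 0.68 (SE 0.12) and 0.62 (SE 0.12), while Card9 was called in KO mice alone (0.43, adjusted p = 0.248, and 0.97, adjusted p = 3.6e-04, edgeR). Of the osteopontin receptors, Cd44 rose by 0.48 and 1.22 and Itgb3 by 1.07 and 1.28, and Itgav was not called in either genotype (0.19 and 0.04).

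The tetraspanin partners Cd37 and Cd53 rose with the largest folds of the list beside Itgb2, by 1.50 and 1.35 in WT and 2.25 and 1.76 in KO mice. Igf1r, the receptor of Igf1, was not called (0.13 and -0.06), and of its binding proteins Igfbp5 rose by 0.68 and 1.01 whereas Igfbp4 fell by 0.35 and fell by 0.30. Lgals9, a galectin like Lgals3, rose by 0.57 and 1.47, and the lysosomal membrane proteins Lamp1 and Lamp2, of the same family as Cd68, rose by 0.23 and 0.40 in WT mice and 0.43 and 0.68 in KO mice. Between KO and WT mice with the transgene 5 of 32 were called, all higher, namely Lgals9 (0.75), Cd44 (0.59), Cd37 (0.55), Itgam (0.54) and Tfe3 (0.23), and in Non-Tg mice 0 of 32 were called by edgeR's quasi-likelihood test. The interaction was called for Lgals9 (0.90), Cd37 (0.75) and Cd44 (0.74).

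Other genes of the plaque-associated state, a list of 40 drawn up with results of these data known, were also mostly higher with the transgene. Of these, 34 of 40 were called higher in WT and 38 of 40 in KO mice, with medians of 1.22 and 1.98, led by Cst7 (7.04 and 7.99) and Atp6v0d2 (6.75 and 8.86). Between KO and WT mice with the transgene 19 of 40 were called higher, with 0.96 for Ctse and 0.95 for Atp6v0d2, and the interaction was called for 7 of 40. Markers of other myeloid cells were low in level. The 8 border macrophage genes summed to 8.15 to 23.2 CPM, and 0 of 8 were called in any of the comparisons by edgeR's quasi-likelihood test, with Pf4 at 1.15 (SE 0.31, adjusted p = 0.0537) in KO against WT Tg-SwDI mice as the nearest. In that comparison 8 of 8 had a higher fitted level, with a median of 0.52 beside 0.48 for the 10 genes and 0.00 for all genes, and summed to 10.6 to 23.2 CPM in KO and 8.56 to 13.9 CPM in WT mice. Of 8 genes of blood-derived myeloid cells 2 passed the filter and 0 were called, Ly6g was at 0 counts in 3 of the 4 groups, and Chil3 in the KO Tg-SwDI group. Of 5 T cell genes 1 was tested, Trac, which was called in KO mice with the transgene (0.82, adjusted p = 0.0245, edgeR). Their part in the levels of the 10 genes was not tested.

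Markers of other brain cells had median log2 fold changes with the transgene of 0.19 in WT and 0.23 in KO mice for astrocytes, 0.05 and 0.23 for oligodendrocytes and -0.11 and -0.06 for neurons. With the transgene 2 of 4 astrocyte genes were called higher in both genotypes, Aqp4 (0.62 and 0.87) and Slc1a3 (0.20 and 0.20), and the list summed to 1020 to 1210 CPM without and 1150 to 1550 CPM with the transgene. Of 5 oligodendrocyte genes 0 were called in WT mice by edgeR's quasi-likelihood test and 3 were called higher in KO mice, Mag (0.36), Mbp (0.31) and Mog (0.23), and the list summed to 3980 to 4670 CPM in KO Non-Tg and 4820 to 6280 CPM in KO Tg-SwDI mice. Of 5 neuronal genes 2 were called lower in KO mice, Syt1 (-0.26) and Gad1 (-0.14), and 0 in WT mice. Between KO and WT mice with the transgene 0 of the genes of these cell types were called by the same test. Their differences were -0.09 to 0.30. Of 4 endothelial genes 1 was called higher there, Ly6c1 (0.46, adjusted p = 0.00701, edgeR), also called with the transgene in KO mice (0.38). Of 3 oligodendrocyte precursor, 5 mural and fibroblast and 4 hippocampal neuron genes 0 were called there. With the transgene, Cspg4 of the precursors was called higher in KO mice (0.29) and Zbtb20 of hippocampal neurons in WT mice (0.29). The part of all these genes in the changes of the 10 genes was not tested.

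Within groups, and with all 20 mice pooled, the 10 genes did not vary as 1 block. Pearson's r was taken between the deviations of log2 CPM from the group means, over 20 mice that share 1 normalization. It was 0.82 for Itgax with Clec7a, 0.80 for Cd9 with Cd63 and 0.75 for Cd63 with Lgals3bp. For other pairs it was lower, at 0.04 for Itgax with Gpnmb, -0.07 for Spp1 with Cd68 and -0.36 for Lgals3 with Cd68. The coefficients of variation of Itgax were 93.7% and 61.1% in WT and KO Non-Tg mice, on 3 to 53 counts. In WT and KO Tg-SwDI mice they were 10.6% and 16%. The r values of Itgax therefore rest mainly on mice with few counts, and r within the Tg-SwDI mice alone was not computed. Among 14409 genes, those most like Itgax were Clec7a, Abcc3 and Cst7 (r of 0.82, 0.82 and 0.81), those most like Clec7a were Abcc3, Rac2 and Itgax (0.86, 0.84 and 0.82), and those most like Gpnmb were Plekhh1, Itgb4 and Phldb1 (0.83, 0.81 and 0.81). For Spp1 they were Psmb9, Ranbp3l and Fgl2 (0.87, 0.84 and 0.84), for Cd9 Ctsl, Cdc14a and Ctsc (0.91, 0.86 and 0.84) and for Cd63 H2-DMb1, Ctsc and Ddah2 (0.92, 0.90 and 0.88). Igf1 was nearest to Mocs1, Gas2l3 and Tmem245 (0.81, 0.77 and 0.77), Lgals3 to Fuca2, Laptm4b and Lbhd2 (0.79, 0.79 and 0.78), Lgals3bp to Trim25, Plxnb2 and Tor3a (0.97, 0.91 and 0.91) and Cd68 to Sema6a, Tnfsf12 and Sox10 (0.90, 0.90 and 0.88). Among these 30 nearest genes, the only ones of the 10 themselves were Clec7a and Itgax, for each other.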

How the data were processed

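Hippocampal mRNA of 20 mice was sequenced from stranded libraries. The authors aligned reads to mm10 with STAR and counted ENSEMBL genes with FeatureCounts, and deposited raw counts without normalization. The strand setting and the treatment of reads matching several genes are not given in the sources used here. Groups came from the labels alone. Symbols were taken from GENCODE M21 (38872 identifiers matched, 99.5%).

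Genes passing filterByExpr by group (minimum count 10, minimum total 15) were scaled by TMM and fitted in edgeR 4.0.16 (R 4.3.3, limma 3.58.1) as 4 group means with 16 residual degrees of freedom, using robust quasi-likelihood tests, and p-values were adjusted by the Benjamini-Hochberg method over 16107 genes at 0.05. Ratios and correlations used log2 CPM with a prior count of 2. DESeq2 1.42.0, edgeR's exactTest, other filters and scalings, covariates, a GC content and length correction and each mouse left out were alternatives. All 10 genes were named, with up to 3 of the largest and 3 of the smallest changes of each other list, partners of the 10 genes, and the 3 genes most alike. Sall1, Tfe3 and Itgam were named after their values were seen. Members and lists were chosen with earlier results of these data known.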

Additional observations from a re-analysis of the deposited data

Results flagged for a closer look

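Chance alone flags about 1 in 20 groups as holding an outlying sample, and 2 of 40 groups did here. Itgax stood at 2.51 CPM in WT Non-Tg mouse 2, far from the 0.248 to 0.811 CPM of the other 4 mice of that group, a gap of 0.75 of the group's range. The same mouse had the highest Clec7a (3.83 CPM), Cst7 (1.09 CPM) and Cd68 (13.9 CPM) of its group, and 1880 CPM of choroid plexus genes. Whether these belong together was not tested.

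Cd68 stood at 116 CPM in KO Tg-SwDI mouse 8, against 68.7 to 80.5 CPM in the other 4 mice, a gap of 0.752 of the range. This library had the lowest TMM factor (0.90), the highest Thy1 of its group (3320 CPM against 2450 to 2840), the highest summed neuronal genes of its group (6110 CPM against 4710 to 5100), the lowest homeostatic microglia sum (833 CPM against 876 to 1130) and the lowest Spp1 of its group. Their part in the Cd68 value was not tested.

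The response to the transgene differed between miR-34a KO and WT mice by an interaction of 2.14 on the log2 scale for Clec7a and of 0.97 for Cd68, by edgeR's quasi-likelihood test.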

How the results depend on the processing

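The counts of the 10 genes called with the transgene (9 in WT, 10 in KO mice) were furthest from these under the homeostatic microglia covariate, with 3 called in each genotype. That covariate reversed Cd63 (-0.35 in WT, -0.16 in KO mice, and -0.07 for KO against WT with the transgene) and Lgals3bp (-0.40 in WT mice), and its values do not overlap between mice with and without the transgene. For KO against WT mice with the transgene (2 called) DESeq2, the exactTest and the choroid plexus covariate gave 4, the homeostatic covariate and the 10 compared mice alone gave 1, and mice over 1000 CPM of choroid plexus genes gave 0. Without the transgene (0 called) DESeq2 and the exactTest gave 1. For the interaction (2 called) DESeq2 gave 6, no low-count filter, library size alone and the homeostatic covariate gave 1, and the choroid plexus covariate and the GC content and length correction gave 0. Where no cause is given above, the cause was not tested.

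With each mouse left out in turn, 9 to 10 genes were called with the transgene in WT and 10 in KO mice, 2 to 3 for KO against WT with the transgene, 0 without it, and 0 to 5 for the interaction, with 0 without WT Non-Tg mouse 2 or KO Non-Tg mouse 7 and 5 without WT Non-Tg mouse 3. The Spp1 difference between KO and WT mice without the transgene lay between -0.49 and 0.07, and was reversed only without WT Non-Tg mouse 7.

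Replicate numbers are shared between groups. Of 16 same-number pairs, 2 had deviations correlated above 0.1 (range -0.40 to 0.15, median -0.04), so no pairing by number was seen. The paper describes the Tg-SwDI cohorts as littermates, but the labels name no litter, and sharing of a litter or batch was not tested. With the replicate block 9 and 10 genes were called with the transgene in WT and KO mice, 0 for KO against WT with it, 0 without it and 1 for the interaction, and Itgax was reversed at -0.07 for KO against WT with the transgene. Over the fold changes of single genes and all settings, 1463 kept direction and call, 42 lost the call, 39 gained it and 6 reversed. Itgax and Clec7a without the transgene rest on at most 81 counts a mouse, which limits the precision of every fold against them.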
